A study of Mus musculus with 48 samples.

Results

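Transcript levels in the mouse hypothalamus and preoptic area were compared between postnatal day 21 (P21), about the time of weaning, and postnatal day 42 (P42), in young adults. The comparison used 7 of the 48 arrays of the series, 3 at P42 and 4 at P21. The remaining P42 array, labelled as a C57Bl/6 male, was left out by a rule on Mobp, a gene of mature myelin. Its 4 bright Mobp probe sets read 2.20 to 61.6, all below the limit of 200, whereas their readings in the 7 arrays ran from 907 to 7517. In the same array Sox11 and Dcx, genes of immature neurons, read 3001 and 4690, and the array correlated best with the C57Bl/6 male of E16 (r = 0.979 over probe sets). It carried both Xist, the transcript of the inactive X chromosome, at 1232 and the Y-linked Eif2s3y at 120. The label was therefore at odds with the values, and the results below are given without this array; the closing section gives what returns with it.

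The series covers 12 ages from E10 onwards with 1 array for each strain, sex and age. At P21 these were one female and one male each of the inbred strain C57Bl/6 and the outbred stock CD-1; at P42 a C57Bl/6 female, a CD-1 female and a CD-1 male remained. No genotype or treatment separates the groups. All mice received standard chow under a 12:12 light cycle, tissue was dissected into an RNA preservative, RNA was purified on columns, and amplification took 1 round primed with oligo-dT. The labels give no number of animals per array, and no combination of strain, sex and age was repeated. The p-values therefore measure the spread of arrays around the fitted age, strain and sex effects. That spread comes mostly from earlier ages and may be technical. The 3 series of strain and sex with both ages were C57Bl/6 females, CD-1 females and CD-1 males.

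The hypothalamus and the adjoining preoptic area hold small groups of neurons that release peptides into the blood, into the portal vessels of the pituitary or onto other neurons, and so set water balance, feeding, arousal, body temperature, stress responses and reproduction. Between weaning and young adulthood a mouse passes through puberty, when the neurons that drive the reproductive axis become active. Myelin is laid down by oligodendrocytes mainly in the first postnatal weeks.

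Values are MAS5 signal, a linear array intensity that is comparable between arrays for 1 probe set but not between genes. Differences are on the log2(signal + 16) scale with their standard error (SE), and they understate the change of dim genes. Among the 7 arrays the median signal ran from 51.3 to 61.6 and the correlations from 0.917 to 0.981. Every array correlated best with an array of its own strain: the C57Bl/6 male of P21 correlated best with the C57Bl/6 female of P42 (0.970), and the CD-1 females of the 2 ages with each other (0.981). The 3'-to-5' ratio of beta-actin, which rises with RNA degradation or short amplification products, was 3.77 to 4.49 in the C57Bl/6 arrays and 1.10 to 1.21 in the CD-1 arrays. It differed by strain at both ages, and its part in the results was not tested beyond a fit with the ratio as a covariate, in which 0 genes were called. Gh, the growth hormone gene of the anterior pituitary, read above the limit of 1000 in every probe set of 2 arrays, the C57Bl/6 females of P21 (1975 to 6386 over 4 probe sets) and of P42 (5179 to 10979.8).

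No gene passed the test between P21 and P42. In limma, with Benjamini-Hochberg adjustment over 11922 genes, 0 genes were higher and 0 were lower at an adjusted p under 0.05 (0% of the genes tested), and the lowest adjusted p was 0.507, for Pomc. At an unadjusted p under 0.05 there were 323 genes (2.71%), 161 higher (1.35%) and 162 lower (1.36%). A fit on the 7 arrays alone, which takes the spread from them and not from all ages, also called 0 genes, with 781 (6.55%) at an unadjusted p under 0.05. The share of 2.71% is below the threshold itself. The spread over all ages may thus be wider than that at P21 and P42, which would make the test strict and the intervals wide. Whether it is was not tested. Weighting the arrays by their quality called 10 genes, 3 higher (Pomc, Il17re and Usp5) and 7 lower (Hcrtr1, Slc6a3, Igfbp2, Cd93, Frmd4a, Med11 and 2700038G22Rik), and adding 64 to the signal in place of 16 called 4 (Pomc, Cga, Hcrtr1 and 9630013A20Rik). Of all genes tested 307 (2.58%) had no overlap between the ages in either direction. With 3 arrays against 4, array order alone separates some genes, so a lack of overlap is not by itself a sign of change. The genes named here are described below as values, except Il17re, Usp5 and Med11, which were called under 1 alternative each.

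Most genes stayed near their P21 level. The middle 90% of genes had log2 changes between -0.29 and 0.31, the median absolute change was 0.11, and 13 genes (0.109%) had an estimate of 2-fold or more. A count of 0 calls does not by itself show stability, so the 95% interval of each change was read as well, unadjusted for the number of genes. It lay within 1.5-fold of no change in 7381 genes (61.9%), called held below, and within 2-fold in 11325 genes (95%). The share held rose with the level of the gene, from 31.3% in the dimmest of 4 equal groups to 59.1%, 75.4% and 81.8% in the brighter ones. These shares are the reference for the held counts of gene lists below. The count differed with the arrays and the source of the spread: without the CD-1 female of P21 it was 4365, without the C57Bl/6 female of P42 it was 4703, without the C57Bl/6 male of P21 it was 7061, and with the spread taken from the 7 arrays alone it was 9510.

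The 3 weeks before P21 were different in scale. Between the day of birth (P0, 4 arrays) and P21, limma called 5046 of the same 11922 genes (42.3%), 2874 higher (24.1%) and 2172 lower (18.2%). The middle 90% of log2 changes ran from -0.89 to 1.21, and 1347 genes (11.3%) had an estimate of 2-fold or more. The median SE was 0.19 for P42 minus P21 and 0.17 for P21 minus P0, so the precision was similar. The largest change of that earlier interval was in Mobp, at 7.85; after P21 its log2 change was -0.11 (SE 0.31). The comparisons share the P21 arrays.

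**Figure D1:**
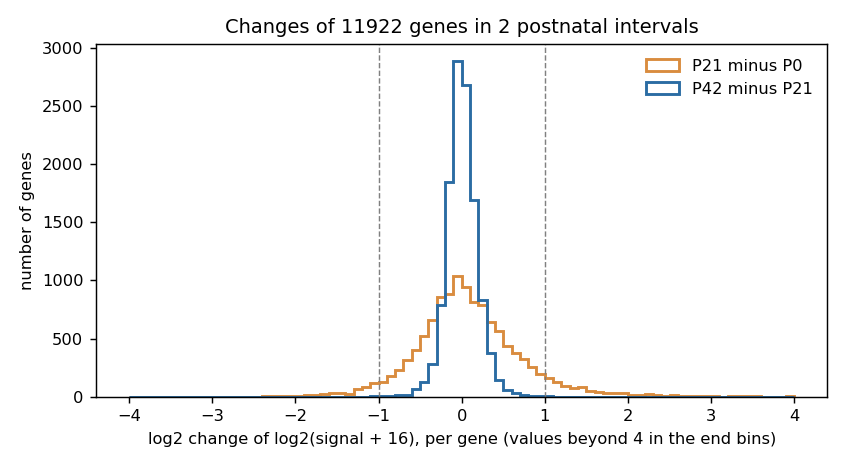
Number of genes (vertical axis) by log2 change of log2(signal + 16) in bins (horizontal axis) for 11922 genes, with P21 minus P0 in orange and P42 minus P21 in blue; dashed lines mark 2-fold. The blue curve is narrow, with 13 genes at 2-fold or more, and the orange one is wide, with 1347.

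Neuropeptide genes read higher at P42 in most cases, though none passed the test. Of 24 neuropeptide genes tested, 0 were called, 21 had an estimate above 0 and 3 below (Crh, Grp and Nucb2, the last pair named after their values were seen), against 49.2% above 0 among all genes tested. The median log2 change was 0.22, against -0.003 for all genes. In all 3 series of strain and sex 9 of the 24 were higher at P42 (13.3% of all genes were), and none was lower in all 3 (14.2%). With any single array of the 7 left out the number above 0 was 18 to 22 and the median 0.17 to 0.27, and in the CD-1 arrays alone, where Gh was at 68.6 or below in every probe set, 19 of 24 were above 0 with a median of 0.17. The direction rests on leaving out the P42 array with low Mobp. With all 48 arrays 7 of the 24 were above 0 and 17 below, with a median of -0.19. Only 1 of the 24 was held (Nts, at 0.10) and 20 lay within 2-fold.

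The summed signal of the 24 neuropeptide genes was 24810 and 22541 in the C57Bl/6 female and male of P21 and 22794 and 24168 in the CD-1 female and male. At P42 it was 35355 in the C57Bl/6 female, 27426 in the CD-1 female and 29542 in the CD-1 male. All 3 P42 sums lay above all 4 P21 sums, and they still did without Pomc (26956 to 30664 against 21763 to 24091) and without Avp, Oxt and Pomc (14676 to 16328 against 12525 to 14195). Of the 33 lists 1, this one, had all P42 sums above the P21 sums, 2 had them below (oligodendrocyte precursors and microglia) and 30 overlapped. With 33 lists and 3 arrays against 4, a few such separations would arise from array order alone, so these counts do not set the list apart. A sum is led by the brightest probe sets, and it carries no test here.

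Avp and Oxt encode vasopressin and oxytocin, the hormones of the magnocellular neurons that project to the posterior pituitary. Avp read 3434 and 3179 in the C57Bl/6 female and male and 5849 and 5214 in the CD-1 female and male at P21, and 6377, 6829 and 7151 in the C57Bl/6 female, CD-1 female and CD-1 male at P42. All 3 P42 arrays were above all 4 of P21, as for 138 genes in all (1.16%), with a log2 change of 0.55 (SE 0.33, unadjusted p = 0.106 in limma). The P21 arrays differed by strain, and the C57Bl/6 female of P42 had the largest step over its own strain. Oxt read 6462 and 5452 in the C57Bl/6 arrays and 4160 and 4947 in the CD-1 arrays at P21, and 7959, 5451 and 6905 at P42 in the same order of arrays as for Avp. The groups overlapped because the C57Bl/6 arrays began higher, but each series was higher at P42, with a log2 change of 0.45 (SE 0.19; limma unadjusted p = 0.0229, adjusted p = 0.9997). The sum of the pair was 8631 to 10161 at P21 and 12280 to 14336 at P42, without overlap.

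The neuropeptides of arousal, feeding and the pituitary-releasing neurons gave smaller differences. Hcrt, the orexin precursor, was at 0.26 (SE 0.20) and Pmch, the precursor of melanin-concentrating hormone, at 0.26 (SE 0.30), each higher in all 3 series with overlapping groups. Trh, which drives thyroid-stimulating hormone, was at 0.24 (SE 0.35), Npy, a feeding peptide, at 0.20 (SE 0.25), Sst, which restrains growth hormone, at 0.13 (SE 0.41) and Ghrh, which drives it, at 0.06 (SE 0.43). Crh, the releasing factor of the stress axis, was at -0.24 (SE 0.34). None of these intervals lay within 1.5-fold, so they do not show that the genes were level. Between P0 and P21 limma called 13 of the 24 neuropeptide genes higher and 0 lower. Among those named here Hcrt, Oxt, Pmch, Tac2, Trh, Crh and Avp had risen, by log2 changes of 2.08 (Avp, adjusted p = 3.80e-07) to 3.25 (Oxt, adjusted p = 2.27e-18), and Npy was at 0.16 (limma adjusted p = 0.601), Sst at -0.05 (0.930) and Ghrh at 0.15 (0.799).

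**Figure D2:**
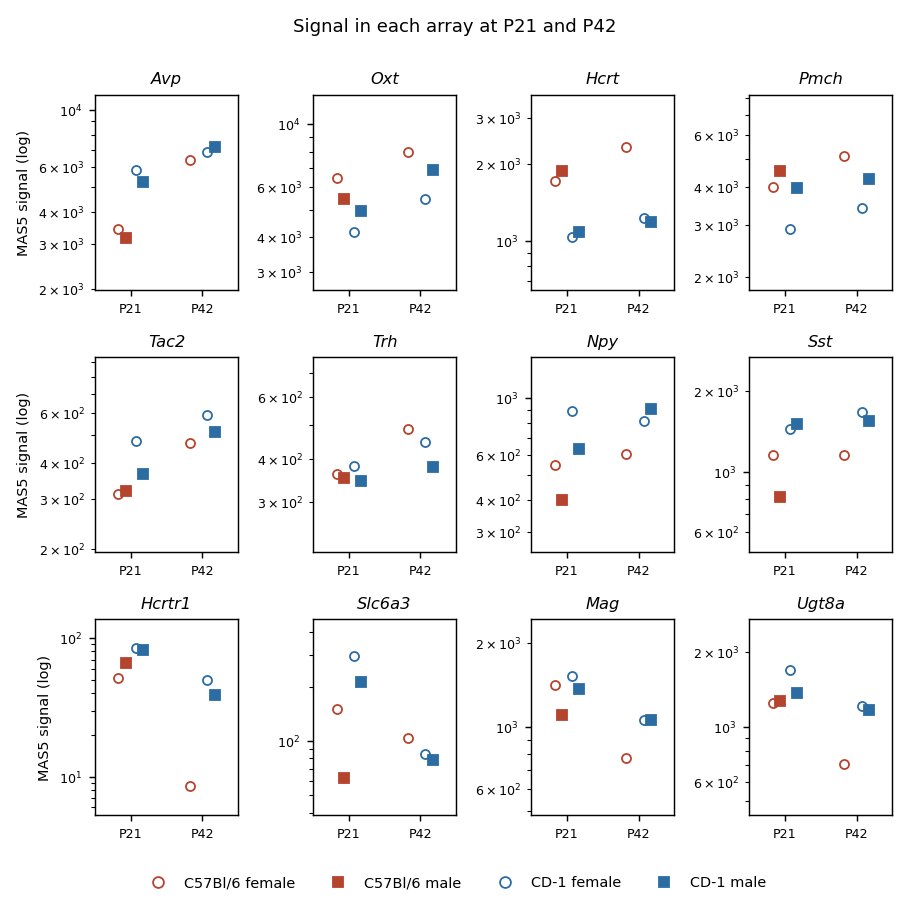
MAS5 signal (log axis) of 12 genes in each of the 7 arrays, P21 at the left and P42 at the right of each panel, with red for C57Bl/6, blue for CD-1, open circles for females and filled squares for males. Avp does not overlap between ages (3179 to 5849 against 6377 to 7151), and Hcrtr1, Mag and Ugt8a were lower at P42 without overlap.

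Of 13 genes linked to puberty, 0 were called, 6 were held and 12 lay within 2-fold, with 9 above and 4 below 0 and a median of 0.13. The number held was 2 without the C57Bl/6 female of P42 and in the CD-1 arrays alone. Tac2, whose product neurokinin B acts in the arcuate neurons that drive gonadotropin-releasing hormone, read 312 and 319 in the C57Bl/6 arrays and 477 and 367 in the CD-1 arrays at P21, and 471, 587 and 512 at P42. It was higher in each series, with the lowest P42 value just under the highest of P21, and its log2 change was 0.41 (SE 0.39; limma unadjusted p = 0.294). Egfr, the receptor of a glial growth-factor pathway studied in puberty, was above P21 in all 3 P42 arrays (219 to 257 against 177 to 209) with a change of 0.31 (SE 0.19), and Irf2bpl was below in all 3 (299 to 310 against 312 to 369) at -0.13 (SE 0.22). Other probe sets were nearer 0, at 0.03 and 0.06 for Egfr and -0.001 for Irf2bpl. Kiss1 and Gnrh1 were not analysed here.

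The sex steroid receptors Esr1 and Pgr were held. Esr1, the estrogen receptor alpha, read 140 to 168 at P21 and 138 to 207 at P42, a log2 change of 0.03 (95% interval -0.45 to 0.51). Pgr, the progesterone receptor, read 379 to 449 and 315 to 448, a change of -0.03 (-0.47 to 0.41). In the CD-1 arrays alone these changes were 0.22 and 0.14 and the intervals passed 1.5-fold. Thra, a thyroid hormone receptor, and Igf1r, the receptor of insulin-like growth factor 1, were held at 0.11 and -0.14. Their other probe sets had the opposite sign, at -0.20 and -0.006 for Thra and from 0.05 to 0.12 over 3 for Igf1r. Over the 19 hormone and peptide receptors tested the median change was -0.01, and 8 were held; 2 were without the CD-1 male of P42, and 3 in the CD-1 arrays alone.

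Among those receptors Hcrtr1 stood lowest. It encodes an orexin receptor, the target of the Hcrt product, and read 51.3 and 65.5 in the C57Bl/6 arrays and 85.3 and 82.4 in the CD-1 arrays at P21, and 8.51, 49.9 and 38.9 in the C57Bl/6 female, CD-1 female and CD-1 male at P42. All P42 arrays lay below all P21 arrays, as for 169 genes (1.42%), with the C57Bl/6 female far below the others. The log2 change was -1.06 (SE 0.27; limma unadjusted p = 0.00042, adjusted p = 0.841), and -0.73 in the CD-1 arrays alone. Each P42 array read below its own median (61.6, 51.7 and 60.3 in the same order), the C57Bl/6 female far below. Hcrtr1 was therefore kept for testing through P21 arrays alone. Its lack of overlap and its p are thus no support for a change.

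The dopamine transporter gene Slc6a3, which marks dopamine neurons that take up their transmitter, read 150.4 and 62.3 in the C57Bl/6 female and male and 295 and 212 in the CD-1 female and male at P21, and 104, 84.8 and 78.7 at P42. The P42 arrays were all low and close together, while the C57Bl/6 male of P21 was lower still, so the groups overlapped. The log2 change was -0.98 (SE 0.28; limma unadjusted p = 0.00112, adjusted p = 0.885), and -1.45 in the CD-1 arrays alone. Th, the rate-limiting enzyme of dopamine synthesis, was held at -0.10 (95% interval -0.52 to 0.32), reading 257 to 432 at P21 and 291 to 366 at P42. Ddc, the next enzyme of that pathway, and Hdc, which makes histamine in the tuberomammillary neurons, were held at -0.08 and -0.04. Of the 12 genes of transmitter synthesis and transport tested, 0 were called, 4 were held and 11 lay within 2-fold.

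**Figure D3:**
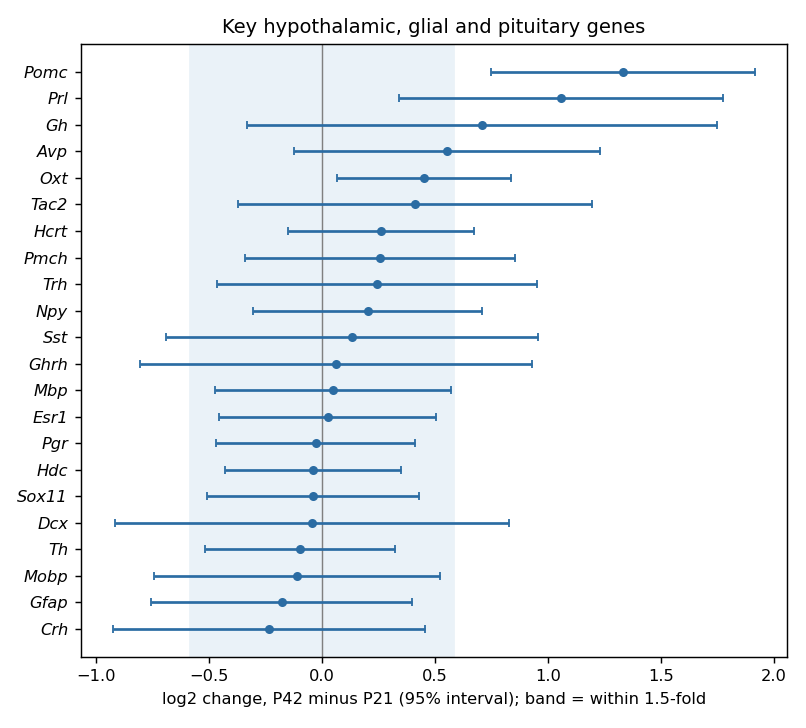
Log2 change of log2(signal + 16) from P21 to P42 (points) with its 95% interval (bars) for 22 hypothalamic, glial and pituitary genes; the shaded band marks 1.5-fold to either side of no change. The intervals of Esr1, Pgr, Th, Hdc, Mbp and Sox11 lie inside the band, those of Pomc, Prl and Oxt lie above 0 before adjustment, and the others pass the band's edge.

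Pomc had the largest change of the named genes and the lowest p. It encodes the precursor of alpha-MSH and beta-endorphin in arcuate neurons, and of ACTH in the pituitary. It read 719 and 778 in the C57Bl/6 female and male and 260 and 214 in the CD-1 female and male at P21, and 4692 in the C57Bl/6 female, 469 in the CD-1 female and 301 in the CD-1 male at P42. The C57Bl/6 female of P42 was far above all others, and each series was higher at P42 though the groups overlapped. The log2 change was 1.33 (SE 0.29; limma unadjusted p = 4.25e-05, adjusted p = 0.507), 2.68 in the C57Bl/6 females, 0.81 in the CD-1 females and 0.46 in the CD-1 males. Its second probe set gave 1.10. Without the C57Bl/6 female of P42 the change was 0.64, and the same array had the highest Gh.

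Pituitary genes also had estimates above 0, though Gh was not in step with Pomc across the arrays. Of 12 pituitary genes 5 were tested, 0 were called and all 5 had an estimate above 0, with a median of 0.72; in the CD-1 arrays alone 4 of 5 were above 0. The summed signal of the 5 ran from 263 to 7213 at P21 and from 473 to 12775 at P42. Gh read 6386, 132, 35.3 and 13.6 at P21 (C57Bl/6 female and male, CD-1 female and male) and 10979.8, 35.6 and 5.77 at P42. Prl, prolactin, read 458, 47.1, 20.7 and 8.23 at P21 and 1041, 60.1 and 11.7 at P42, a log2 change of 1.06 (SE 0.35). Both followed the C57Bl/6 females at either age and were low in the CD-1 arrays.

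Cga read higher at P42 in the CD-1 arrays as well. It encodes the common alpha subunit of thyroid-stimulating hormone and the gonadotropins, made in the anterior pituitary and in the pars tuberalis along the median eminence. It read 250.2 and 95.04 in the C57Bl/6 female and male and 166 and 138 in the CD-1 female and male at P21, and 551, 270.4 and 299 at P42. All P42 arrays lay above all P21 arrays, the CD-1 arrays included, with a log2 change of 1.09 (SE 0.32; limma unadjusted p = 0.00179, adjusted p = 0.9997) and 0.84 in the CD-1 arrays alone. Tshb, the beta subunit of thyroid-stimulating hormone, read 53.3, 37.8, 47.004 and 52.3 at P21 and 123, 53.7 and 92.2 at P42, in the same order of arrays. It was likewise above in all 3, the CD-1 female by a narrow margin, at 0.72 (SE 0.37), and at 0.40 in the CD-1 arrays alone. Lhb, the beta subunit of luteinizing hormone, read 64.6, 51.7, 44.04 and 50.2 at P21 and 80.1, 53.1 and 115 at P42, higher in each series with overlapping groups (0.56, SE 0.24). How far pituitary tissue contributes to these values, and to Pomc, was not tested.

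**Figure D4:**
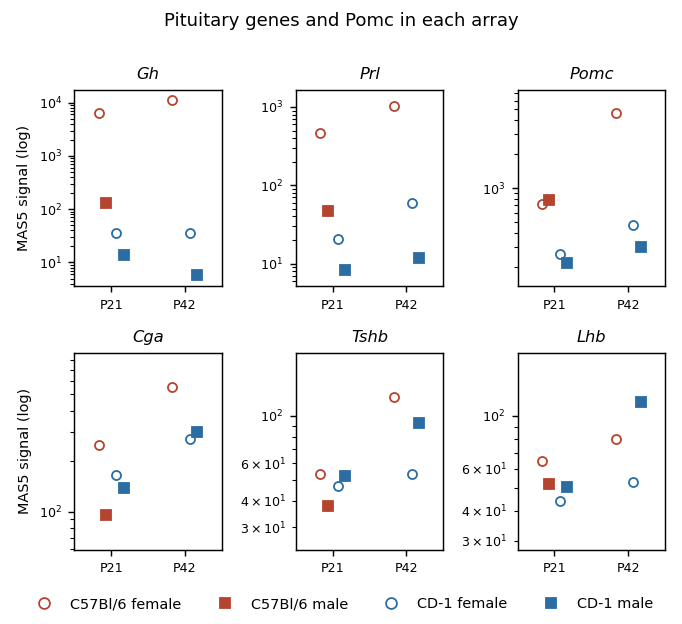
MAS5 signal (log axis) of 5 pituitary hormone genes and Pomc in each of the 7 arrays, P21 at the left and P42 at the right, with red for C57Bl/6, blue for CD-1, open circles for females and filled squares for males. Gh and Prl are high in the 2 C57Bl/6 females, while Cga is above every P21 value in all 3 P42 arrays (270.4 to 551 against 95.04 to 250.2).

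In bulk tissue, fewer cells of a type and less RNA per cell cannot be told apart, which applies to all cell type lists here. Of 15 myelin genes tested, 0 were called and 2 were held, Mbp and Opalin. Mbp, a major protein of compact myelin, read 6917 to 10821 at P21 and 7116 to 9493 at P42, a log2 change of 0.05 (95% interval -0.47 to 0.57), after a rise of 6.25 between P0 and P21 (limma adjusted p = 6.52e-23). Its other 7 probe sets ranged from -0.32 to 0.08. Of the list, 11 of 15 had an estimate below 0, with a median of -0.23. In all 3 series 6 of 15 were lower (14.2% of all genes were) and 0 were higher (13.3%). With 1 array left out 10 to 13 were below 0, and in the CD-1 arrays alone 10 were, with a median of -0.12.

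Mag, an adhesion protein of the innermost myelin layer, read 1419, 1107, 1526 and 1368 at P21 (C57Bl/6 female and male, CD-1 female and male) and 775, 1060.5 and 1059.6 at P42 (C57Bl/6 female, CD-1 female and male). Its groups did not overlap, and its log2 change was -0.56 (SE 0.30; limma unadjusted p = 0.0669). Ugt8a, which makes the myelin lipid galactosylceramide, read 1253, 1268, 1702 and 1370 at P21 and 706, 1209 and 1173 at P42, also without overlap, at -0.55 (SE 0.24; limma unadjusted p = 0.0282). In both genes the C57Bl/6 female of P42 was the lowest array, and in the CD-1 arrays alone the changes were -0.44 and -0.35.

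Oligodendrocyte precursor genes lay in the same direction. Of 10 tested, 0 were called, 9 were below 0 with a median of -0.11, and 3 were held. With 1 array left out 6 to 10 were below 0, the median was -0.27 to -0.11 and 0 to 2 were held (0 without the C57Bl/6 female of P21); in the CD-1 arrays alone 7 were below 0. The summed signal was 7602 to 8658 at P21 and 6353 to 7295 at P42, lower without overlap as in 2 of the 33 lists. Gpr17, a receptor of precursors that are about to differentiate, read 377, 551, 1246 and 1024 at P21 and 264, 742 and 492 at P42 in the same order, lower in each series though the strains differed more than the ages. Its log2 change was -0.86 (SE 0.30; limma unadjusted p = 0.00657, adjusted p = 0.9997).

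Most genes of immature neurons stayed near the lower level reached by P21. All 19 tested had fallen between P0 and P21 in limma at an adjusted p under 0.05, with a median log2 change of -2.27. From P21 to P42, 0 were called, 14 were held and 19 lay within 2-fold, with a median of -0.09. In limma 3 of the 19 had an unadjusted p under 0.05 (2.71% of all genes did), namely Nrep, Marcksl1 and Cxadr. Marcksl1 was at -0.42 (SE 0.19) and Cxadr at 0.39 (SE 0.19), and neither was held. The other probe set of Cxadr gave -0.23. Sox11 read 215 to 402 at P21 and 200.2 to 326 at P42 (change -0.04, 95% interval -0.51 to 0.43), and Stmn1, a microtubule regulator of growing neurites, was held at 0.06. Nrep, a gene of developing neurons, was both held and lower without overlap (725 to 843 against 581 to 662; change -0.32, SE 0.10). Dcx was at -0.05, but its interval ran from -0.92 to 0.83. Its P21 signal was 757 and 530.5 in the C57Bl/6 arrays and 232 and 175 in the CD-1 arrays. The number held was 7 without the CD-1 female of P21 and 15 without the C57Bl/6 male of P21.

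Mitochondrial genes were mostly held. Of all genes tested 61.9% were held, and 81.8% in the brightest of 4 equal groups. The lists below were not matched for level. Of 17 mitochondrial respiration genes 15 were held, with a median of -0.05, among them Cox4i1 at 0.05 (SE 0.12) and Ndufa1 at 0.0005 (SE 0.10), subunits of respiratory complexes IV and I. With 1 array left out 12 to 13 of the 17 were held. Of 20 genes of synaptic vesicles and scaffolds 13 were held, including Snap25 and Syt1 of the release machinery, and all 20 lay within 2-fold; with 1 array left out the held count was 3 to 9, lowest without the C57Bl/6 female of P42. Of 15 cholesterol synthesis genes 11 were held, falling to 3 without the C57Bl/6 female of P42. Of 23 hypothalamic transcription factors 8 were held and 21 lay within 2-fold, with a median of 0.02. Sim1, needed for paraventricular neurons that include the Avp and Oxt cells, was above P21 in all 3 P42 arrays (101 to 148 against 48.5 to 88.0), at 0.61 (SE 0.35), and its other probe set gave 0.16.

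**Figure D5:**
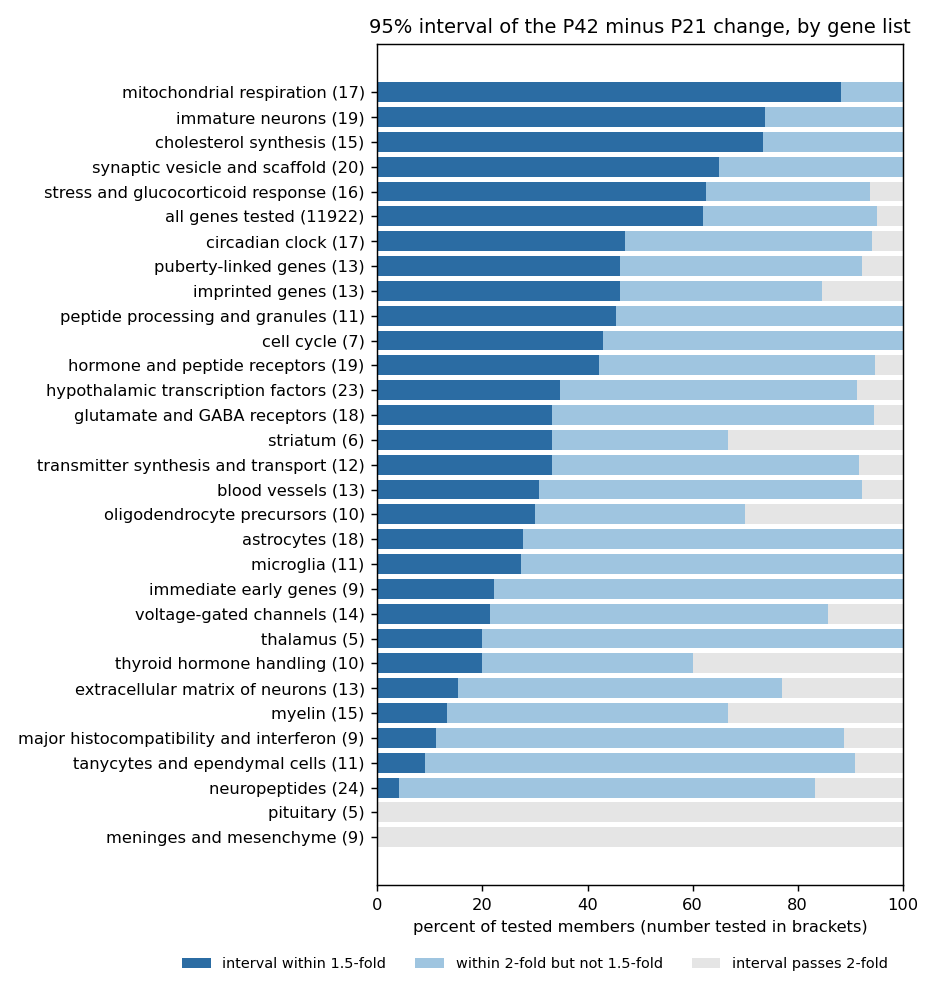
Percent of tested members of each gene list (number tested in brackets) whose 95% interval of the P21 to P42 change lay within 1.5-fold (dark blue), within 2-fold but not 1.5-fold (light blue) or passed 2-fold (grey). Mitochondrial genes have the largest dark share (15 of 17), neuropeptides have 1 of 24, and pituitary and meningeal genes have none; all genes tested are shown for reference at 61.9%.

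None of 18 astrocyte, 11 microglial and 13 vascular genes was called; 5, 3 and 4 were held, and 18, 11 and 12 lay within 2-fold, with medians of -0.02, -0.03 and -0.13. Of the vascular genes 10 were below 0 and 3 above, and 5 were lower in all 3 series (14.2% of all genes were) while 0 were higher (13.3%). With 1 array left out 7 to 12 were below 0. The astrocyte genes had 10 below 0 and 8 above, and the microglial genes 6 and 5. The summed microglial signal was 4334 to 5001 at P21 and 4099.8 to 4256 at P42, lower without overlap as in 2 of the 33 lists. Csf1r, given below, made up a large part of these sums, and they were not recomputed without it. With single arrays left out 3 to 5 astrocyte, 1 to 3 microglial and 1 to 4 vascular genes were held. The astrocyte enzyme Glul, which makes glutamine, was held at -0.05 and Clu, a secreted chaperone, at 0.02, while Gfap was at -0.18 (SE 0.29). Csf1r, a receptor that microglia need to survive, read 1745 to 2154 at P21 and 1485 to 1695 at P42 without overlap, at -0.23 (SE 0.23). Its other 2 probe sets gave -0.09 and 0.13. In the vessels Rgs5, a pericyte gene, read lower in all 3 P42 arrays (-0.42, SE 0.28), while its other 3 probe sets ranged from -0.51 to 0.30.

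Meningeal and mesenchymal genes had the lowest median of the lists with more than 1 gene tested, at -0.51. Their changes were imprecise, with a median SE of 0.55 against 0.19 for all genes tested. Whether the members varied together between arrays was not tested. Of 9 tested, 0 were called or held, 8 were below 0 and 6 were lower in all 3 series (14.2% of all genes were). The count below 0 was 8 with any array left out, and the median ran from -0.84 to -0.28. Igfbp2, an insulin-like growth factor binding protein, read 179, 98.3, 349 and 277 at P21 (C57Bl/6 female and male, CD-1 female and male) and 73.2, 143 and 197 at P42, lower in each series with overlapping groups (change -0.84, SE 0.24; limma unadjusted p = 0.00145). Its SE was the lowest of the list. The summed signal of the list was 1284 to 2526 at P21 and 1251 to 1824 at P42.

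Thyroid hormone handling had 10 genes tested, 0 called and 2 held. Crym, a cytosolic thyroid hormone-binding protein that is also a tanycyte gene, read 70.6 to 116 at P21 and 25.1 to 61.5 at P42 without overlap (-0.74, SE 0.40). Slco1c1, a thyroid hormone transporter of the blood-brain barrier, read 412 to 483 and 293 to 384, also without overlap (-0.47, SE 0.34). Klf9, a thyroid hormone target, was held at -0.12. Ttr is made in quantity by the choroid plexus, and the sums of the 2 choroid plexus genes tested ran from 267 to 5371 at P21 and from 267 to 2889 at P42.

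Imprinted genes active in the hypothalamus were partly held, where 61.9% of all genes were. Of 13 tested, 0 were called and 6 were held, among them Ndn at 0.05 and Peg3 at -0.01. Magel2, a neighbour of Ndn in the Prader-Willi region, was above P21 in all 3 P42 arrays (383 to 492 against 289 to 379; 0.36, SE 0.23). Cdkn1c, a growth-restraining cell cycle inhibitor, was below in all 3 (36.0 to 51.4 against 62.5 to 74.2; -0.51, SE 0.24). All 3 P42 readings of Cdkn1c lay below their array's median (51.7 to 61.6). It was kept for testing through P21 arrays alone, so its lack of overlap is no support for a change. Clock genes and stress-response genes had medians of -0.04 and -0.05, with 8 of 17 and 10 of 16 held (2 of 17 without the CD-1 female of P21, and 3 of 16 without the CD-1 male of P42), including Tef at 0.01, Nr1d2 at -0.04 and Hsp90aa1 at -0.08.

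Outside the lists, 8 genes without overlap between the ages and with a low unadjusted p were picked after their values were seen, and none passed the adjustment. Frmd4a, a scaffold protein of cell polarity, read 452 to 565 at P21 and 338 to 372 at P42 (-0.50, SE 0.14; limma unadjusted p = 0.000659, adjusted p = 0.872). Cd93, an endothelial surface receptor, read 110.1 to 134 and 59.6 to 97.95 (-0.58, SE 0.16), and its other 2 probe sets gave -0.57 and 0.10. Fblim1, a filamin-binding adaptor, read 30.7 to 52.1 and 66.6 to 85.4 (0.64, SE 0.18). The transcripts 2700038G22Rik and 9630013A20Rik were at -1.20 (SE 0.32) and -0.95 (SE 0.27). Every P42 reading of 2700038G22Rik (9.14 to 46.4) lay below its array's median (51.7 to 61.6). That transcript was kept for testing through P21 arrays alone, so its values are no support for a change. Cog4, of the Golgi tethering complex, was at 0.41 (SE 0.13) and Cilk1, a ciliary kinase, at -0.54 (SE 0.17); the other 2 probe sets of each gave -0.24 and 0.05 for Cog4 and 0.04 and 0.19 for Cilk1. Nkiras2, a regulator of NF-kappaB inhibitors, was at -0.33 (SE 0.11) and held.

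Neither strain nor sex was found to change the step from P21 to P42. The interaction of strain with P42 called 0 genes in limma, with 138 (1.16%) at an unadjusted p under 0.05, and the interaction of sex called 0, with 264 (2.21%). C57Bl/6 and males each have 1 array at P42, so these tests are coarse: for Pomc the CD-1 change minus the C57Bl/6 change was -1.86 (SE 0.52; limma adjusted p = 0.99997).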

How the data were processed

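Per the submitters' processing notes, the deposited values are array intensities made with GCOS 1.4 and MAS5; they are linear signals, 1 per probe set and array. Other steps are not given in the sources used here. Each array's mean signal between the 2 and 98 percentiles was already 150.0, so the values were used as deposited. Of 45101 probe sets, 34945 have 1 gene symbol in the platform annotation, 932 have several and 9160 have none there; 64 are controls. Symbols were updated through RefSeq (34741 probe sets matched).

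Signal was taken as log2(signal + 16). A probe set was kept when above its array's median in at least 3 of the 7 arrays, and the one with the highest mean stands for its gene. This filter read the compared arrays, so a dim gene could be kept through its readings at a single age. Linear models were fitted by lmFit and eBayes with a trend (limma 3.58.1, R 4.3.3) on 47 arrays with age, strain, sex and terms for strain and sex at P21 and P42, so the difference rests on the 7 arrays and the spread on all ages (31 residual degrees of freedom). Tests are two-sided, adjusted by Benjamini-Hochberg, called at an adjusted p under 0.05. A gene was held when its 95% interval lay within 1.5-fold. The fit was tested on simulated data in which 200 of 11922 genes changed by 1.5- to 8-fold. The simulated noise was normal, with the same spread at all ages. It recovered 38.7% of 1.5-fold and 76.7% of 2-fold changes between P21 and P42. Of simulated 2-fold differences in that change it recovered 12% between strains and 14.7% between sexes. Many large changes make the adjustment less strict, and the real comparison called 0 genes. These shares therefore do not say how many real changes of that size were missed. The number of arrays limits the precision. At most 2 values were identical between any pair of arrays.

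The 33 gene lists have 529 members, of which 393 were tested; members and lists were chosen with earlier results of these data known. Genes were named when called, when among the 2 brightest held members of a list, or when on a list of 26 key genes (74 genes); 40 others were chosen after their values were seen, those given for lying without overlap between the ages or for a low unadjusted p. Alternatives covered pseudocounts, filters, normalization, array weights, covariates, the sets of arrays and leaving out each array.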

Additional observations from a re-analysis of the deposited data

Results flagged for a closer look

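Lef1, a transcription factor gene on the thalamus list, read 72.5 in the CD-1 female of P21, below the other 3 arrays of that age at 95.7, 96.1 and 97.7. The gap to the nearest array was 0.93 of the range of the 4, above Dixon's 95% limit for 4 values. It was the only one of 114 named genes to pass that limit at P21, where chance passes about 1 in 20. Its change to P42 was held at -0.01 (SE 0.17).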

How the results depend on the processing

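The count of genes called between P21 and P42 was 0, and became 1 with all 48 arrays (Spats2), 4 with 64 added to the signal, 1 with no filter (Serpinb1a), 10 with array weights and 0 to 2 with single arrays left out: 2 without the CD-1 female of P21 (Med18 and Spats2) and 1 without the CD-1 female of P42 (Med18). Under the other alternatives it stayed 0. The number held, 7381, was 4647 in the CD-1 arrays alone, 4652 without the arrays with high Gh (the same contrast, since C57Bl/6 then has no P42 array) and 4365 to 7061 with single arrays left out. The sex interaction called 1 gene with 1 added (Defa39), 1 with 64 added (Gjb1), 3 with no filter (Fat2, Gjb1 and Plscr2) and 9 with array weights; the strain interaction called 0 in every alternative run. With the left-out array returned, log2 changes reversed, by the rule given next, for Cdkn1c (0.37), Clu (-0.96), Mbp (-1.89), Nkiras2 (0.0273), Nrep (0.39), Opalin (-0.61), Oxt (-0.64), Sox11 (0.72), Tef (-0.57), Vcan (0.20) and Vim (0.17), and Gjb1 ran from -0.81 to 0.0762 with single arrays left out (reversed without the CD-1 male of P42). Beyond the array change itself the cause was not tested. The neuropeptide list, with that P42 array returned, had 7 genes above 0 and 17 below and a median of -0.19. Over 22 alternatives the 114 named genes gave 2506 values. Of these 1995 were the same: a held gene was still held, or another gene's change stayed within its SE. In 396 a held gene was no longer held, in 11 a gene became called, and in 92 the change moved by more than its SE. The other 12 reversed, a change of sign with an unadjusted p under 0.05 in limma in either fit. Changes of sign without such a p were not counted as reversed. Of 60 held genes 6 were held in every alternative. Pairing the arrays by strain and sex, with each series as a block, called 0 genes and left 7019 held. Signal limits the dim genes, of which 31.3% were held in the dimmest of 4 groups.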
